A study of Sus scrofa with 24 samples.

Results

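The genes described here are the antioxidant and xenobiotic metabolism genes of porcine aortic valve leaflets kept in culture with or without cyclic stretch. The rule that set their membership reads gene symbols and no measured value. A probe set (the group of probes that reads 1 transcript) was a member if its only gene symbol in the platform annotation began with GST, MGST, GPX, PRDX, TXN, CYP, ALDH, AKR or NQO, or was SOD1, SOD2, SOD3, CAT, HMOX1, HMOX2, GCLC, GCLM or GSR. This gave 135 probe sets of 87 genes, out of 6765 genes with a symbol on the array. Of the 87 genes, 58 had 1 probe set and 29 had several. The several are numbered in parentheses, from (1) for the highest mean over all arrays. Members whose group mean reached 5 log2 in at least 1 group numbered 72 probe sets of 57 genes. The other 63 stayed below 5 in every group, near the bottom of the scale, and are described by counts.

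Pieces of 15 by 10 mm were cut from the centre of valve cusps of domestic pigs aged 12 to 24 months, bought from an abattoir, and all were cultured for 24 h at 37 °C in serum-supplemented DMEM that also held ascorbic acid, itself an antioxidant. The 24 pieces formed 4 groups of 6. The first was stretched with 5HT plus Fluox, the second stretched with no agents, the third static with 5HT plus Fluox and the fourth static with no agents. 5HT is serotonin, and the doses of both agents were not given in the sources used here. Stretched pieces hung by sutured loops in a tensile bioreactor, whereas static pieces lay free in medium, so cyclic stretch and the suturing and suspension that went with it cannot be told apart. The labels do not tie arrays to animals, and 1 valve may have given pieces to several groups, so the p-values below measure the spread between pieces. Each piece was read on its own Affymetrix array, and all values are log2 GCRMA values (background-corrected, normalized probe set levels). Each group held 6 arrays, and all 24 arrays shared an estimate of spread for each probe set. A probe set therefore has the same standard error in every comparison of 2 groups, although static arrays spread less than stretched ones.

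Cells contain superoxide and peroxides with a chain of enzymes. Superoxide dismutases turn superoxide into hydrogen peroxide, which catalase, glutathione peroxidases and peroxiredoxins then reduce, drawing on glutathione and thioredoxin that dedicated reductases regenerate. Cytochromes P450, aldehyde dehydrogenases, aldo-keto reductases, quinone reductases and glutathione S-transferases oxidise, reduce or conjugate foreign compounds as well as sterols, retinoids and lipid aldehydes, and many of these genes are known targets of the transcription factor NRF2 or of the aryl hydrocarbon receptor.

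Stretched arrays differed from static ones in RNA measures and in cell markers, which bear on every stretch result below. The difference between 3′ and 5′ control probe sets of GAPDH and EF1A, which widens where RNA is degraded or incompletely copied, ranged from 1.85 to 4.66 log2 in stretched tissue with 5HT plus Fluox and from 0.70 to 0.97 in static tissue with the agents, and from 0.98 to 3.06 in stretched tissue and from 0.57 to 0.91 in static tissue without agents (exact two-sided permutation test, p = 0.00216 for each pair, the smallest that 6 against 6 arrays allow, adjusted p = 0.00519 over 12 tests). Control probe sets for 28S ribosomal RNA read 2.69 higher (log2) on stretched arrays with the agents and 2.07 higher without them (adjusted p = 0.00519 each, exact permutation test), and those for 18S were 1.23 and 1.01 higher (adjusted p = 0.00519 and 0.013). Markers of endothelial cells (15 of 17 listed genes measured) averaged 3.55 to 3.90 in stretched and 5.19 to 5.96 in static tissue with the agents, and 3.56 to 3.82 in stretched and 4.70 to 5.84 in static tissue without them. The endothelial cadherin gene CDH5 averaged 3.50 in stretched and 8.20 in static tissue with the agents, and 3.72 and 7.62 without them, on its brighter probe set. TIE1, NOS3, CLDN5, ESAM, FLT1 and KDR had means below 4 in every group, and VWF in every group but static tissue without agents. Of 27 endothelial marker probe sets, 14 were called lower without agents (51.9%) and 10 with them (37%), against 23.1% and 23.9% of all probe sets. The 1 called higher was of KDR, by 0.79 (SE 0.31, adjusted p = 0.0408, limma) without agents. ERG fell by 1.21 (SE 0.25) without agents, and its change with them was -0.07 (adjusted p = 0.816, limma). Markers of valve interstitial fibroblasts (10 of 12 measured), which define the labelled tissue, averaged 9.66 to 10.10 in stretched and 7.90 to 8.73 in static tissue with the agents, and 8.80 to 9.90 and 8.04 to 9.20 without them. They did not move as 1 set: in each comparison 7 of these genes were called higher and 2 lower. COL3A1 fell by 2.79 with the agents and 3.04 without, and PDGFRB, on its called probe set, by 0.65 and 1.41. Smooth muscle markers averaged 7.90 to 9.48 and 5.10 to 6.14 with the agents, and 6.69 to 8.60 and 4.82 to 7.30 without them. Macrophage and leukocyte markers averaged 4.12 to 5.14 and 4.51 to 5.27 with the agents, and 4.05 to 4.45 and 4.63 to 6.13 without them. All 6 measured cardiac markers were below 4 in every group. The 6 hepatocyte markers averaged 3.54 to 4.15 in stretched and 2.97 to 3.13 in static tissue with the agents, and 3.54 to 4.38 and 2.96 to 3.51 without them. Among them the plasma protein genes ALB and APOA1 were called higher in stretched tissue, ALB by 1.91 (SE 0.47) with the agents and 1.70 (SE 0.47) without, and APOA1 by 2.59 (SE 0.55) and 1.76 (SE 0.55), while APOB, FGB, SERPINA1 and TTR were below 4 in every group. Of the 3 measured erythrocyte markers the globin gene HBB fell by 0.87 (SE 0.26) and 1.00 (SE 0.26), and AHSP and ALAS2 were below 4. The part of the RNA measures and of the cell markers in the results below was not tested, and in whole tissue a loss of cells of a type and a lower level per cell cannot be told apart. A second fit took up each array's 3′ to 5′ difference as a covariate, and its result is given beside the genes described below where it ended their calls. It ended those of ALB, APOA1 and HBB in both comparisons, that of PDGFRB with the agents and that of KDR without them. Every stretched array had a wider difference than every static array, so this fit cannot separate the difference from stretch. A call could also end with its change kept. S100A4, a fibroblast marker, rose by 2.18 without agents (adjusted p = 0.0183, limma) and by 2.22 with the covariate (adjusted p = 0.102).

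In tissue without agents, stretched pieces had higher levels of the sterol hydroxylase gene CYP27A1, the retinaldehyde dehydrogenase gene ALDH1A1, catalase and a CYP2C gene, and lower levels of peroxiredoxins 3 and 4, MGST1, GSTO1, HMOX2, SOD2, glutathione reductase (1), ALDH9A1, CYP39A1 and 2 CYP3A genes than static pieces. Differences among the brighter members reached 9.01-fold upward (CYP27A1) and 9.69-fold downward (PRDX4 (2)). SOD1, SOD3, GPX1, HMOX1, NQO1, thioredoxin and its reductase did not pass the threshold. Of the 135 member probe sets, limma with Benjamini-Hochberg adjustment over all 23999 probe sets called 68 at an adjusted p under 0.05, 39 higher and 29 lower in stretched tissue. That is 50.4% of the members, against 52.5% of all probe sets, so the share of members called was near that of the array as a whole. By direction, 28.9% of members were called higher and 21.5% lower, against 29.4% and 23.1% of all probe sets. Among the 68 members with a group mean of at least 5 in either group, 10 were higher and 27 lower, 14.7% and 39.7%, against 23.9% and 36.1% of all such probe sets. Their median change was -0.53 log2, against -0.32 for all such probe sets. In 17 members all 6 stretched arrays lay above every static array (12.2% of all probe sets) and in 12 all 6 lay below (8.36%). By gene, 23 had only higher calls, 23 only lower calls, 4 both (AKR1CL1, CYP19A3, GSR and TXNDC15) and 37 none. The balance of directions depended on scaling: quantile normalization gave 18 higher and 28 lower, and centring the arrays on the median of probe sets averaging at least 4, by which the all-probe-set median shifted 0.22 log2, gave 62 higher and 24 lower. Over all probe sets the balance moved too, with 56.1% of calls higher before, 48.1% after quantile normalization and 71.9% after centring. The covariate fit called 25 members, 8 higher and 17 lower, and 21.6% of all probe sets.

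In tissue with 5HT plus Fluox the same comparison called 71 members (limma, adjusted p under 0.05), 38 higher and 33 lower, or 52.6% against 52.2% of all probe sets. The rises of CYP27A1, ALDH1A1 and catalase and the falls of PRDX4, CYP3A29, CYP3A46, MGST1, GSTO1 and ALDH9A1 were called here too. Called only here were GSTK1 and TXNIP, which were higher, and GCLM, thioredoxin reductase, thioredoxin, PRDX1 and NQO1, which were lower. Differences among the brighter members reached 16.6-fold upward (CYP27A1) and 17.1-fold downward (CYP3A46). Among the 70 members with a group mean of at least 5 in either group, 17 were higher and 32 lower, 24.3% and 45.7%, against 27.2% and 39.1% of all such probe sets, with a median change of -0.80 against -0.33. In 34 members all 6 stretched arrays lay above every static array (23.7% of all probe sets) and in 33 all 6 lay below (18.1%). Quantile normalization gave 23 higher and 32 lower, and centring, with a shift of 0.20 log2, gave 68 higher and 32 lower. Of the calls over all probe sets, 54.3% were higher before, 49.1% after quantile normalization and 70.6% after centring. The covariate fit called 19 members, 8 higher and 11 lower, and 15.5% of all probe sets.

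**Figure D1:**
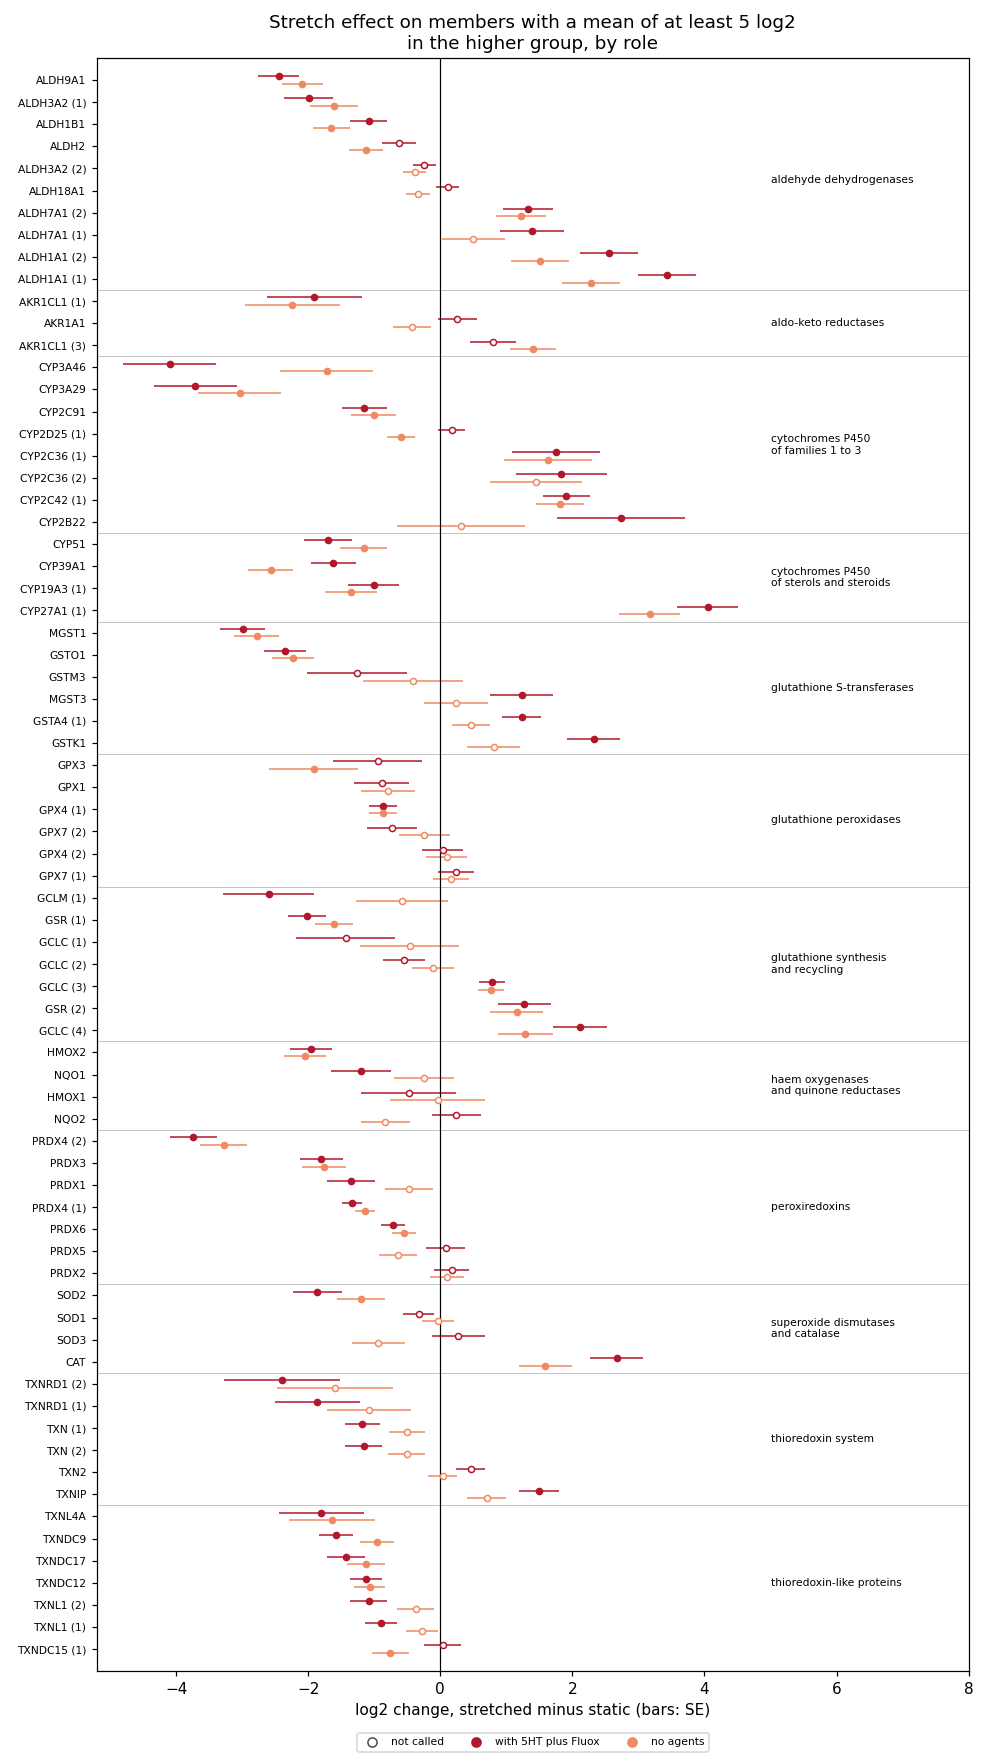
Log2 change of each member probe set whose brighter group averaged at least 5, stretched minus static (horizontal axis, log2), grouped by role, with 5HT plus Fluox in dark red and without agents in orange; bars are standard errors and open circles did not pass the threshold. Peroxiredoxins 1, 3, 4 and 6 lie left of 0, CYP27A1 and ALDH1A1 lie farthest right, and GSR and GCLC have probe sets on both sides.

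Superoxide dismutases and catalase split in direction. CAT, which breaks hydrogen peroxide down to water and oxygen, read 8.38, 9.60 and 10.43 log2 (here and below the lowest, median and highest of 6 arrays) in stretched tissue and 7.12, 7.62 and 9.20 in static tissue without agents. With 5HT plus Fluox it read 10.15, 10.30 and 11.32 in stretched and 7.30, 8.09 and 8.37 in static tissue. All 6 stretched arrays lay above every static array with the agents, and 3 of 6 did so without them. The log2 change was 1.59 (SE 0.40, adjusted p = 0.0034, limma) without agents, a 3.02-fold rise, and 2.67 (SE 0.40, adjusted p = 2.6e-05) with them, a 6.37-fold rise. With the covariate the change was 1.40 without agents (adjusted p = 0.06), which ends that call, and 2.41 with them (adjusted p = 0.00916).

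SOD2, the manganese enzyme of mitochondria, moved the other way. It read 11.54, 13.82 and 14.07 in stretched and 14.32, 14.46 and 14.71 in static tissue without agents. With 5HT plus Fluox it read 11.39, 12.97 and 13.22 in stretched and 14.26, 14.41 and 14.56 in static tissue. The groups did not overlap in either pair. It fell by 1.20 log2 (SE 0.37, adjusted p = 0.0116, limma) without agents and by 1.86 (SE 0.37, adjusted p = 4.1e-04) with them, and neither call held with the covariate (changes of -0.30, adjusted p = 0.546, and -0.62, adjusted p = 0.376). SOD1, the copper and zinc enzyme of the cytosol, read 11.28, 12.68 and 13.35 in stretched and 12.07, 12.51 and 12.66 in static tissue without agents, a difference of -0.04 (SE 0.24, adjusted p = 0.9). SOD3, the secreted form, had a change of -0.94 (SE 0.40, adjusted p = 0.055) without agents and 0.27 (SE 0.40, adjusted p = 0.579) with them.

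**Figure D2:**
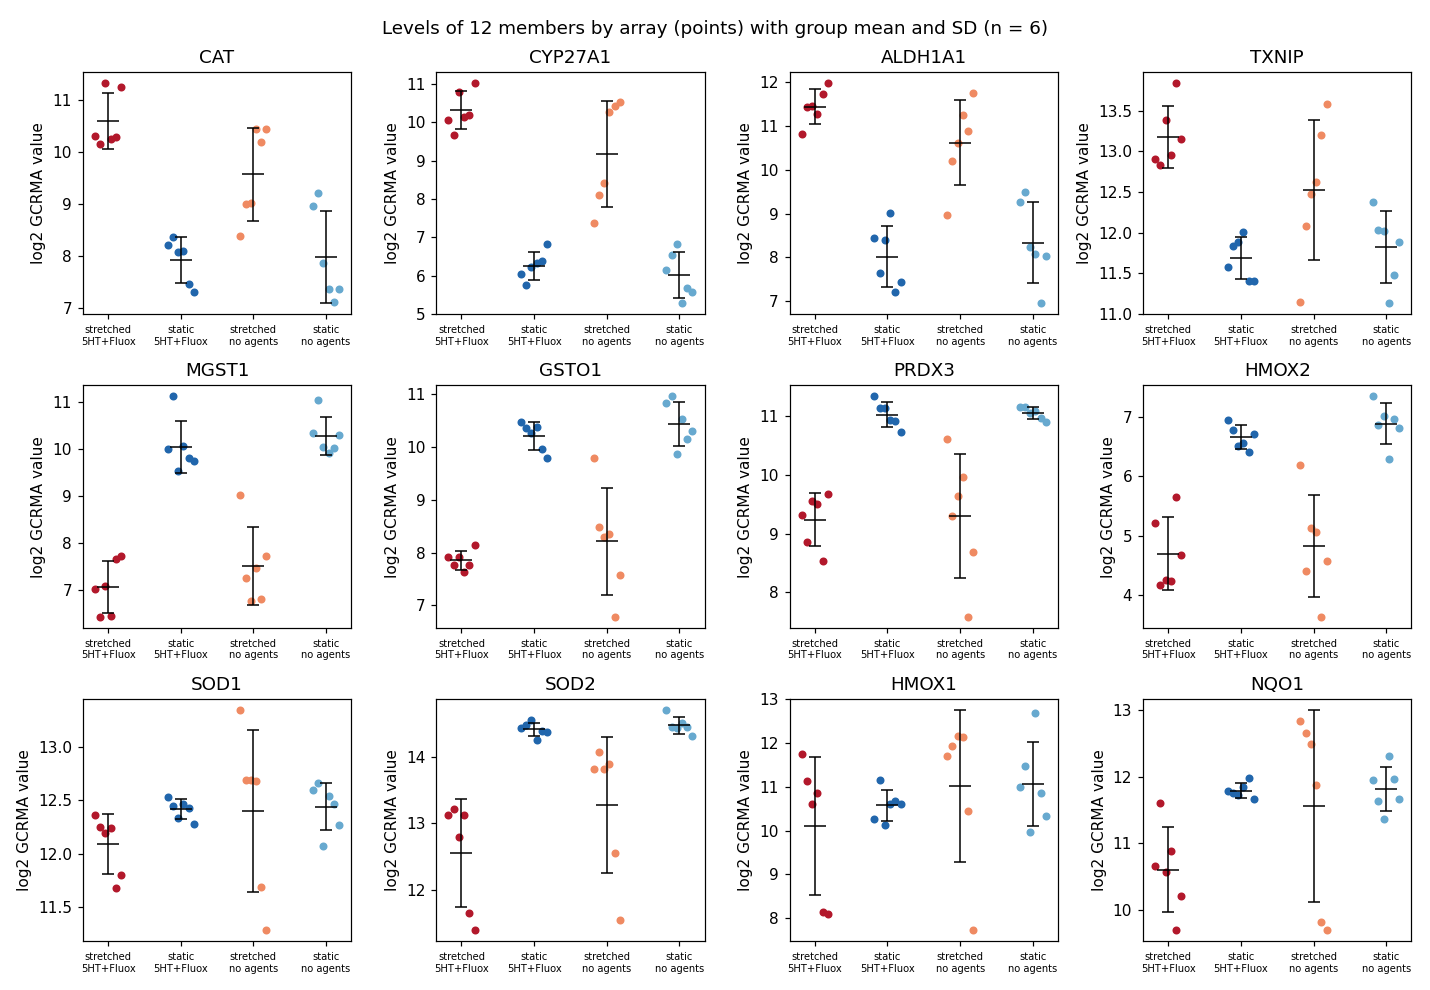
Log2 GCRMA level (vertical axes) of 12 members in each of the 4 groups; points are the 6 arrays of a group and lines the mean and SD. CAT, CYP27A1, ALDH1A1 (1) and TXNIP sit higher in stretched tissue, MGST1, GSTO1, PRDX3, HMOX2 and SOD2 sit lower, and SOD1 and HMOX1 show a few low stretched arrays, and all 6 stretched NQO1 arrays with 5HT plus Fluox lie below the static ones with the agents.

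Peroxiredoxins reduce peroxides with electrons from thioredoxin, and none of their 7 probe sets was called higher: 4 were lower without agents and 5 with them, where 36.1% and 39.1% of all probe sets with a mean of at least 5 were called lower. PRDX4, the form of the endoplasmic reticulum, gave the largest fall. Its probe set (2) read 2.61, 4.10 and 4.87 in stretched and 5.96, 7.52 and 8.15 in static tissue without agents. With 5HT plus Fluox it read 3.50, 3.89 and 4.56 in stretched and 7.38, 7.60 and 8.20 in static tissue. Stretched and static arrays were more than 1 log2 unit apart at their closest in both pairs. The changes were -3.28 (SE 0.36, adjusted p = 6.5e-07, limma) and -3.74 (SE 0.36, adjusted p = 9.4e-08), and both calls held with the covariate (adjusted p = 2.0e-05 and 3.6e-05). Probe set (1) of the same gene also fell in both, by 1.14 (SE 0.15) without agents and 1.34 (SE 0.15) with them, so both probe sets fell, by different amounts.

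PRDX3, the mitochondrial form, read 7.58, 9.48 and 10.62 in stretched and 10.90, 11.07 and 11.16 in static tissue without agents, and 8.53, 9.41 and 9.67 against 10.74, 11.03 and 11.34 with the agents. Its changes were -1.76 (SE 0.33, adjusted p = 3.2e-04, limma) and -1.80 (SE 0.33, adjusted p = 2.1e-04), of which the call with agents did not hold with the covariate (-0.88, adjusted p = 0.179). PRDX6, which uses glutathione rather than thioredoxin, fell by 0.55 (SE 0.18, adjusted p = 0.0169) and 0.72 (SE 0.18, adjusted p = 0.00286). The PRDX6 changes with the covariate were -0.07 and -0.06, so neither call held, and the call without agents was also lost when arrays were centred. PRDX1, the abundant cytosolic form, had a change of -0.47 (SE 0.36, adjusted p = 0.269) without agents and -1.35 (SE 0.36, adjusted p = 0.00438) with them, and the change with them was -0.09 with the covariate (adjusted p = 0.928). PRDX2 and PRDX5 were not called in either comparison, with changes between -0.64 and 0.17.

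Within the thioredoxin system, TXNIP, which binds thioredoxin and blocks it, and thioredoxin itself had changes of opposite sign. TXNIP read 11.15, 12.54 and 13.58 in stretched and 11.13, 11.95 and 12.38 in static tissue without agents, and 12.83, 13.05 and 13.84 against 11.40, 11.70 and 12.01 with them. Its change was 0.70 (SE 0.30, adjusted p = 0.0565, limma) without agents, which did not pass the threshold, and 1.49 (SE 0.30, adjusted p = 4.9e-04) with them. TXN (1) read 12.14, 13.69 and 13.99 in stretched and 13.60, 13.80 and 14.01 in static tissue without agents, and 11.85, 12.79 and 13.04 against 13.73, 13.81 and 13.97 with them. Only the pair with agents did not overlap. Its changes were -0.50 (SE 0.27, adjusted p = 0.117) and -1.18 (SE 0.27, adjusted p = 0.00148), and TXN (2) gave -0.51 and -1.16 (adjusted p = 0.126 and 0.00241). With the covariate the change with agents was 0.61 for TXNIP (adjusted p = 0.317) -0.27 for TXN (1) (adjusted p = 0.652) and -0.22 for TXN (2) (adjusted p = 0.751), so these calls did not hold.

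TXNRD1, the cytosolic thioredoxin reductase, was called lower with the agents only, and the calls were lost when certain single arrays were left out. On probe set (1) stretched and static arrays with the agents did not overlap. Probe set (1) read 7.61, 10.70 and 11.20 in stretched and 11.72, 11.85 and 11.99 in static tissue with 5HT plus Fluox, and 7.73, 11.75 and 12.11 in stretched and 11.42, 12.00 and 12.65 in static tissue without agents. The changes with agents were -1.86 (SE 0.64, adjusted p = 0.0208, limma) for (1) and -2.40 (SE 0.88, adjusted p = 0.0276) for (2). Leaving out stretched array 5 with agents ended both calls, and leaving out array 6 ended that of (2). With the covariate the sign turned, to 0.65 and 1.16 (adjusted p = 0.567 and 0.382). TXN2, the mitochondrial thioredoxin, was not called in either comparison. Among 7 brighter probe sets of 6 thioredoxin-like genes, 5 were lower without agents and 6 with them (36.1% and 39.1% of all probe sets at that level), and none was higher. TXNDC12, a thioredoxin-fold protein of the endoplasmic reticulum, fell by 1.07 (SE 0.24, adjusted p = 0.00154) and 1.13 (SE 0.24, adjusted p = 8.3e-04), with both calls kept under the covariate. TXNDC9 fell by 0.96 (SE 0.26, adjusted p = 0.00554) and 1.58 (SE 0.26, adjusted p = 6.5e-05), and with the covariate the call without agents ended (adjusted p = 0.125).

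Among glutathione synthesis and recycling genes, GSR had probe sets called in opposite directions, so no direction can be stated for it as a gene. GCLC had higher calls only, but its brightest probe set (1) was not called, so GCLC too is described by probe set. GSR encodes the reductase that regenerates glutathione. GSR (1) read 6.91, 7.89 and 9.22 in stretched and 9.16, 9.35 and 10.20 in static tissue without agents, and 7.06, 7.49 and 7.87 against 9.03, 9.48 and 9.87 with them, changes of -1.61 (SE 0.29, adjusted p = 2.4e-04, limma) and -2.02 (SE 0.29, adjusted p = 1.7e-05). GSR (2) read 4.97, 5.21 and 7.56 in stretched and 4.05, 4.65 and 5.19 in static tissue without agents, and 4.89, 6.11 and 6.91 against 4.53, 4.86 and 5.08 with them. Its changes were 1.16 (SE 0.40, adjusted p = 0.0213) and 1.27 (SE 0.40, adjusted p = 0.0125). Both calls of (1) held with the covariate (-1.34 and -1.65) and neither of (2) did (0.50 and 0.36).

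GCLC and GCLM are the catalytic and modifier subunits of the enzyme that limits glutathione synthesis. GCLC (3) and (4) were called higher, with changes of 0.77 (SE 0.20, adjusted p = 0.00401, limma) and 1.29 (SE 0.41, adjusted p = 0.0146) without agents and of 0.78 (SE 0.20, adjusted p = 0.00305) and 2.12 (SE 0.41, adjusted p = 3.6e-04) with them, and these 4 calls held with the covariate. GCLC (1) was not called, with changes of -0.46 (SE 0.75) and -1.43 (SE 0.75), and read 4.80, 9.49 and 10.17 in stretched and 7.93, 8.91 and 9.45 in static tissue without agents. Its stretched arrays spread on both sides of the static ones. GCLM (1) read 2.83, 4.50 and 4.95 in stretched and 5.97, 6.89 and 7.24 in static tissue with 5HT plus Fluox, and 3.48, 7.33 and 8.54 in stretched and 5.91, 6.89 and 8.35 in static tissue without agents. The arrays with agents did not overlap and the change was -2.60 (SE 0.69, adjusted p = 0.00412), against -0.58 (SE 0.69, adjusted p = 0.471) without agents. With the covariate the change with agents was -0.83 (adjusted p = 0.629).

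**Figure D3:**
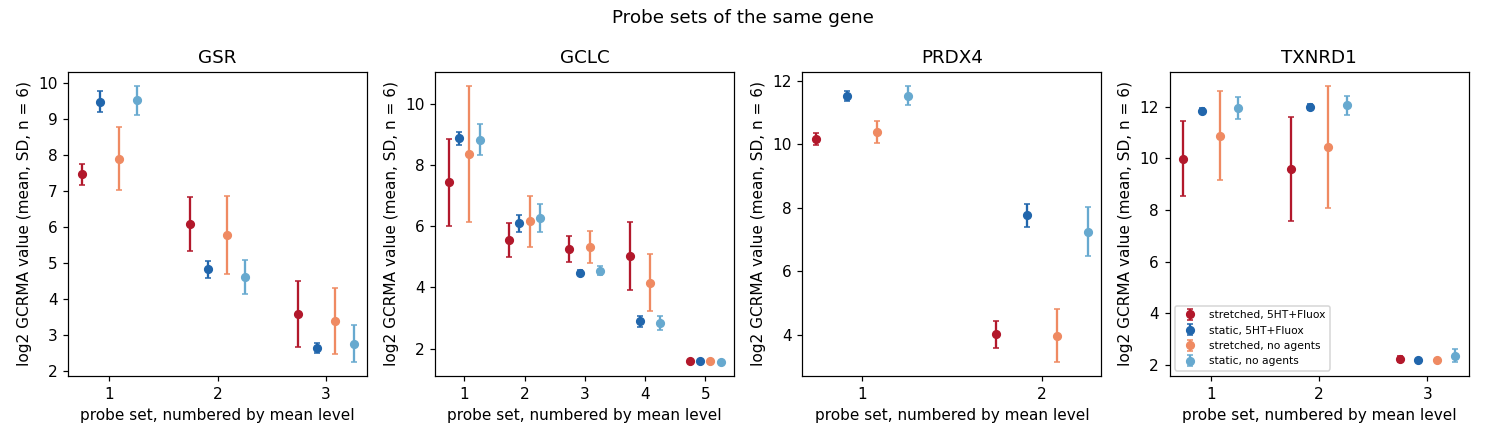
Mean log2 GCRMA level with SD (vertical axes, 6 arrays) of each probe set of GSR, GCLC, PRDX4 and TXNRD1 in the 4 groups. The first GSR probe set is lower and the second higher in stretched tissue, GCLC (3) and (4) are higher while (1) has wide spread in stretched tissue, and both PRDX4 probe sets are lower.

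Glutathione peroxidases reduce peroxides with glutathione. GPX4, which acts on lipid peroxides in membranes, read on probe set (1) 9.62, 10.35 and 11.13 in stretched and 10.74, 11.12 and 11.58 in static tissue without agents, and 9.66, 10.12 and 10.67 against 10.70, 11.06 and 11.30 with them. It fell by 0.87 (SE 0.21) in both comparisons (adjusted p = 0.00287 and 0.00263, limma), and with the covariate the fall with agents was no longer called (-0.79, adjusted p = 0.113). GPX4 (2) was not called, with changes of 0.10 and 0.04 (SE 0.31 each). GPX3, the secreted plasma form, read 3.99, 5.21 and 6.75 in stretched and 6.37, 7.39 and 7.91 in static tissue without agents. Its change was -1.92 (SE 0.67, adjusted p = 0.0223) without agents and -0.95 (SE 0.67, adjusted p = 0.229) with them. That call ended in the covariate fit (adjusted p = 0.139) and without stretched array 3. GPX1, the cytosolic form, was not called, with changes of -0.79 (SE 0.41, adjusted p = 0.105) and -0.89 (SE 0.41, adjusted p = 0.0717). Without static array 4 of the no-agents group, which widened the spread of GPX1, both comparisons called it.

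Glutathione S-transferases included 2 genes that fell in both comparisons and 4 probe sets that were called higher only with the agents. MGST1, a membrane-bound transferase with peroxidase activity, read 6.75, 7.35 and 9.01 in stretched and 9.91, 10.17 and 11.05 in static tissue without agents, and 6.42, 7.05 and 7.72 against 9.52, 9.91 and 11.12 with them. The groups did not overlap. The changes were -2.78 (SE 0.34, adjusted p = 3.2e-06, limma), a 6.87-fold fall, and -2.99 (SE 0.34, adjusted p = 1.1e-06), a 7.93-fold fall, and both calls held with the covariate (adjusted p = 1.5e-04 and 4.9e-04). GSTO1, the omega class enzyme, fell by 2.23 (SE 0.32, adjusted p = 2.0e-05) and 2.35 (SE 0.32, adjusted p = 8.3e-06). GSTO1 read 6.78, 8.32 and 9.80 in stretched and 9.86, 10.42 and 10.96 in static tissue without agents, and 7.63, 7.84 and 8.14 against 9.79, 10.32 and 10.48 with them, again without overlap. Both calls held with the covariate.

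GSTK1, the kappa class enzyme of mitochondria and peroxisomes, read 6.04, 7.21 and 8.16 in stretched and 4.47, 5.04 and 5.17 in static tissue with 5HT plus Fluox, and 4.95, 6.05 and 7.16 against 4.29, 5.22 and 6.19 without agents. Its change was 2.32 (SE 0.40, adjusted p = 1.2e-04, limma) with agents and 0.81 (SE 0.40, adjusted p = 0.0924) without them, and the call held with the covariate (2.00, adjusted p = 0.0276). GSTA4, which conjugates lipid aldehydes, rose by 1.23 (SE 0.29, adjusted p = 0.00193) with agents on probe set (1), and MGST3 by 1.23 (SE 0.48, adjusted p = 0.0358). Neither of these held with the covariate (adjusted p = 0.0881 and 0.293), and the MGST3 call was also lost when any of 8 single arrays was left out. The last, GSTZ1 (1), rose by 1.16 (SE 0.40, adjusted p = 0.0222) below a mean of 5, a call that the covariate, quantile normalization and the fit of only the groups compared each ended.

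Haem oxygenases break haem down to biliverdin. HMOX2, the constitutive form, read 3.63, 4.82 and 6.19 in stretched and 6.29, 6.92 and 7.35 in static tissue without agents, and 4.17, 4.46 and 5.66 against 6.41, 6.64 and 6.96 with them, with no overlap in either pair. It fell by 2.05 (SE 0.32, adjusted p = 4.3e-05, limma) and 1.96 (SE 0.32, adjusted p = 5.5e-05), and by 2.08 and 2.00 with the covariate. HMOX1, the inducible form, read 7.72, 11.81 and 12.17 in stretched and 9.97, 10.93 and 12.70 in static tissue without agents, and 8.10, 10.73 and 11.76 against 10.13, 10.61 and 11.16 with them. Its changes were -0.04 (SE 0.72, adjusted p = 0.965) and -0.48 (SE 0.72, adjusted p = 0.58), and with standard errors of 0.72 a change of 1 log2 unit was not detectable here. NQO1, a quinone reductase, read 9.69, 10.61 and 11.60 in stretched and 11.67, 11.77 and 11.98 in static tissue with the agents, a change of -1.20 (SE 0.45, adjusted p = 0.0322). That call was lost without the 3 arrays whose 3′ to 5′ difference exceeded 2.5 and without any of 4 single arrays (stretched 5 and 6 and static 4 and 5 with the agents), and with the covariate the change was 0.03 (adjusted p = 0.987). Without agents the NQO1 change was -0.25 (SE 0.45, adjusted p = 0.637), and NQO2 was not called in either comparison.

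Aldehyde dehydrogenases moved both ways. ALDH1A1, which makes retinoic acid from retinaldehyde, read on probe set (1) 8.98, 10.76 and 11.76 in stretched and 6.95, 8.16 and 9.49 in static tissue without agents. With 5HT plus Fluox it read 10.82, 11.45 and 11.99 in stretched and 7.22, 8.01 and 9.01 in static tissue, where the groups did not overlap. The changes were 2.28 (SE 0.44, adjusted p = 3.9e-04, limma), a 4.85-fold rise, and 3.43 (SE 0.44, adjusted p = 3.9e-06), a 10.8-fold rise. Probe set (2) rose by 1.51 (SE 0.44, adjusted p = 0.00839) and 2.56 (SE 0.44, adjusted p = 1.0e-04). With the covariate 3 of these 4 calls held, and (2) without agents did not (1.44, adjusted p = 0.0762). ALDH7A1 (2), of lysine breakdown, rose by 1.22 (SE 0.38, adjusted p = 0.0126) and 1.33 (SE 0.38, adjusted p = 0.00695), neither of which held with the covariate.

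ALDH9A1, an enzyme of carnitine synthesis, fell by 2.09 (SE 0.31, adjusted p = 2.9e-05, limma) without agents and 2.45 (SE 0.31, adjusted p = 4.0e-06) with them. It read 8.19, 9.31 and 10.48 in stretched and 10.63, 11.38 and 11.74 in static tissue without agents, and 8.21, 8.72 and 8.96 against 10.56, 11.03 and 12.00 with them. Neither pair overlapped, and both calls held with the covariate (-1.55 and -1.70). ALDH3A2 (1), which oxidises fatty aldehydes, fell by 1.61 (SE 0.37, adjusted p = 0.00163) and 1.99 (SE 0.37, adjusted p = 2.2e-04), and neither call held with the covariate. The mitochondrial ALDH1B1 fell by 1.65 (SE 0.28, adjusted p = 1.0e-04) and 1.08 (SE 0.28, adjusted p = 0.00324), the fall with agents ending under the covariate (adjusted p = 0.0581). ALDH2, the main acetaldehyde dehydrogenase of mitochondria, fell by 1.13 (SE 0.26, adjusted p = 0.00199) without agents, and its change with them was -0.63 (SE 0.26, adjusted p = 0.0517). Among aldo-keto reductases, AKR1CL1 gave 2 directions: (1) changed by -2.24 (SE 0.72, adjusted p = 0.015) and -1.91 (SE 0.72, adjusted p = 0.032), and (3) by 1.40 (SE 0.35, adjusted p = 0.00293) and 0.80 (SE 0.35, adjusted p = 0.0583). Under the covariate only the call of (1) without agents held.

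The cytochromes P450 of sterol and steroid metabolism held the largest rise of all brighter members. CYP27A1, a mitochondrial sterol hydroxylase that opens the acidic route of bile acid synthesis and is present in many tissues, read on probe set (1) 7.38, 9.34 and 10.53 in stretched and 5.28, 5.92 and 6.83 in static tissue without agents. With 5HT plus Fluox it read 9.66, 10.16 and 11.02 in stretched and 5.75, 6.27 and 6.83 in static tissue. Neither pair overlapped. The changes were 3.17 (SE 0.46, adjusted p = 1.9e-05, limma) and 4.05 (SE 0.46, adjusted p = 8.6e-07), and with the covariate 2.72 (adjusted p = 0.00173) and 3.43 (adjusted p = 0.00131). CYP39A1, an oxysterol hydroxylase, fell by 2.57 (SE 0.34, adjusted p = 8.8e-06) and 1.62 (SE 0.34, adjusted p = 7.8e-04), and the covariate fit ended the call with agents (-0.99, adjusted p = 0.194). CYP39A1 read 4.01, 4.72 and 6.54 in stretched and 6.88, 7.47 and 7.89 in static tissue without agents, and 4.96, 5.59 and 6.34 against 6.51, 7.38 and 7.75 with them, with no overlap. CYP51, a demethylase of cholesterol synthesis, fell by 1.16 (SE 0.36, adjusted p = 0.0122) and 1.70 (SE 0.36, adjusted p = 7.2e-04), and neither call held with the covariate. The 12 probe sets of the porcine aromatase genes CYP19A1 and CYP19A3, close copies that may share signal, were below 5 except for CYP19A3 (1), which fell by 1.35 (SE 0.39) and 1.01 (SE 0.39) while other probe sets of both genes were called higher. Neither fall of CYP19A3 (1) held with the covariate.

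Of the drug-metabolising families 1 to 3, 13 of 21 probe sets stayed below 5 in both comparisons, among them CYP1A1, CYP2E1 and CYP3A22. Porcine CYP3A genes and CYP2C genes are close in sequence within each family, so signal may be shared between their probe sets. CYP3A29 read 2.33, 2.43 and 3.08 in stretched and 3.94, 5.32 and 7.30 in static tissue without agents, and 2.29, 2.46 and 3.03 against 3.62, 6.31 and 8.40 with them. It changed by -3.04 (SE 0.63, adjusted p = 7.8e-04, limma) and -3.71 (SE 0.63, adjusted p = 9.9e-05), with stretched levels at the bottom of the scale, and both calls held with the covariate. CYP3A46 read 2.57, 2.68 and 2.78 in stretched and 5.20, 6.24 and 9.03 in static tissue with the agents, and 2.63, 2.67 and 2.76 in stretched and 2.57, 4.09 and 6.68 in static tissue without them. Stretched arrays of both groups lay within 0.3 log2 of each other, while static arrays spread over several units. Its changes were -4.10 (SE 0.70, adjusted p = 9.9e-05) with agents and -1.72 (SE 0.70, adjusted p = 0.0444) without them, and the call without agents was lost with the covariate, under centring, in the fit of only these groups and when any of 12 single arrays was left out.

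Of 9 probe sets of the CYP2C genes, epoxygenases and hydroxylases of fatty acids and drugs, 6 were called higher and 1 lower in each stretch comparison, where 29.4% of all probe sets were called higher without agents and 28.3% with them. CYP2C42 (1) read 3.62, 4.80 and 6.85 in stretched and 2.71, 3.38 and 3.75 in static tissue without agents, and 4.97, 5.36 and 5.77 against 3.09, 3.43 and 3.79 with them. It rose by 1.81 (SE 0.36, adjusted p = 5.8e-04, limma) and 1.91 (SE 0.36, adjusted p = 2.9e-04), and the covariate fit ended the call with agents (1.22, adjusted p = 0.121). CYP2C36 (1) rose by 1.63 (SE 0.67, adjusted p = 0.0476) and 1.75 (SE 0.67, adjusted p = 0.0354), calls that were lost under quantile normalization, with the covariate and without several single arrays of both conditions. CYP2C91 fell by 1.01 (SE 0.34, adjusted p = 0.0197) and 1.15 (SE 0.34, adjusted p = 0.00876), with changes of -0.22 and -0.07 under the covariate. CYP2B22 read 3.71, 7.90 and 10.74 in stretched and 2.86, 5.05 and 6.81 in static tissue with agents, a change of 2.74 (SE 0.97, adjusted p = 0.0234) that was lost with the covariate and without either of 2 arrays, and its change without agents was 0.32 (SE 0.97, adjusted p = 0.781).

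Both stretch comparisons used separate arrays, since neither shares a group with the other. Of the members called higher, 22 were called in both, 56.4% of those without agents and 57.9% of those with them. Of those called lower, 24 were called in both, 82.8% and 72.7%. No member had opposite calls. Over the 135 probe sets the changes correlated with r = 0.90, as a description only, because members are not independent and the 3′ to 5′ difference moved the same way in both. The same overlap and correlation were not computed over all probe sets, of which 52.5% and 52.2% were called. They are therefore not shown to be particular to these genes.

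**Figure D4:**
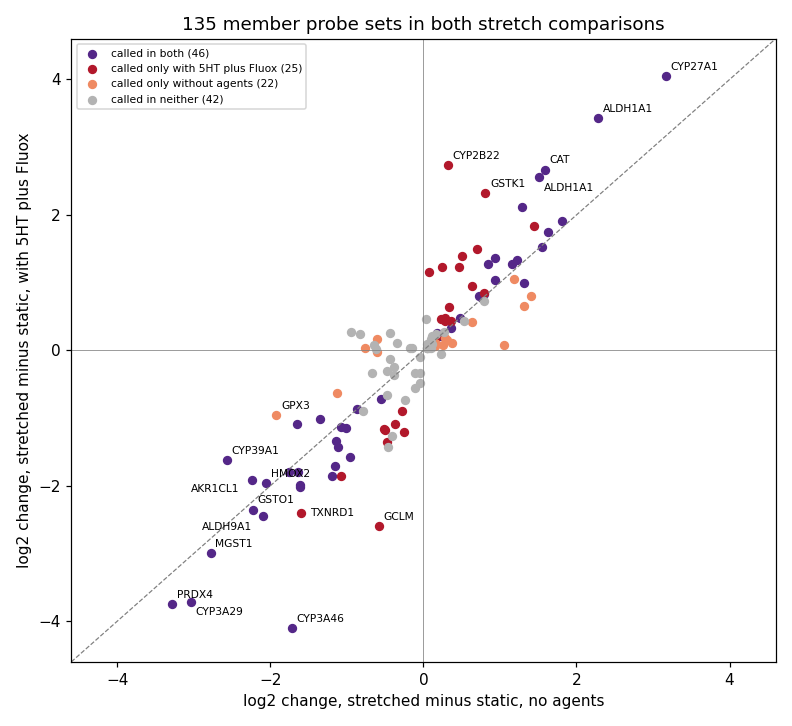
Log2 change in stretched against static tissue without agents (horizontal axis) and with 5HT plus Fluox (vertical axis) for the 135 member probe sets; colours give the calls and the dashed line marks equal changes. The 46 members called in both lie in the upper right and lower left, and GCLM and CYP3A46 lie well below the line.

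A set of members had 2 low arrays in each stretched group, and this was noticed after their values were seen. Stretched arrays 5 and 6 with the agents had 3′ to 5′ differences of 4.66 and 2.98, and stretched arrays 5 and 6 without agents had 2.31 and 3.06. On HMOX1 these arrays read 8.14 and 8.10 with the agents and 10.45 and 7.72 without, whereas the other 8 stretched arrays lay between 10.60 and 12.17. On GCLC (1) they read 5.25, 6.10, 6.40 and 4.80, and the others 7.76 to 10.17. The same arrays were the lowest pair in both stretched groups for 13 of the 72 brighter member probe sets (18.1%), against 8.82% of all 13287 such probe sets. The 13 were GCLC (1) and (2), GCLM (1), HMOX1, NQO1, PRDX1, SOD1, SOD2, TXN (1) and (2), TXNL1 (1), and TXNRD1 (1) and (2). Several encode known NRF2 targets, as many of the members do, and the part of NRF2 in this pattern was not tested. MGST1, PRDX4 and CAT were among the members that did not show that pattern. On MGST1 the 3 arrays of widest difference read 7.65 to 7.72, above most other stretched arrays, and stretched array 1 without agents, of narrowest difference (0.98), read 9.01. Labels give no meaning to the array numbers beyond replicate, and the part of the 3′ to 5′ difference in this pattern was not tested.

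**Figure D5:**
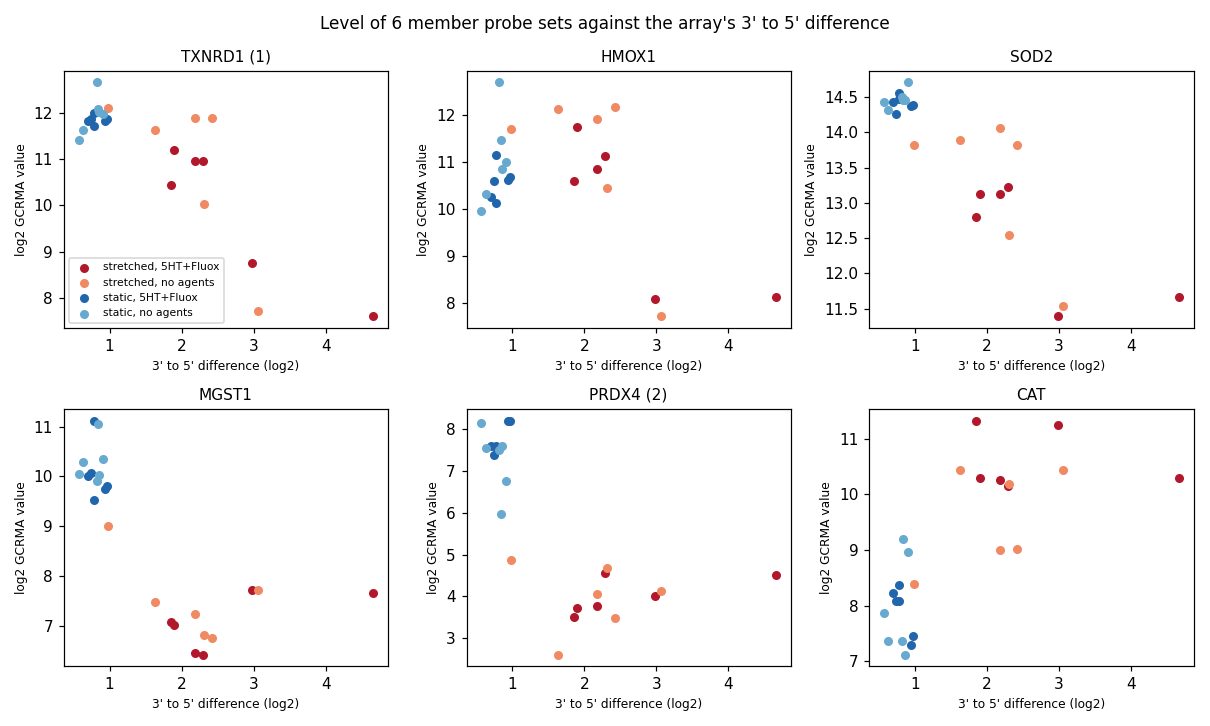
Log2 GCRMA level (vertical axes) of 6 member probe sets against the 3′ to 5′ difference of the same array (horizontal axes, log2), 24 arrays coloured by group. TXNRD1 (1), HMOX1 and SOD2 are lowest in the 3 arrays whose difference exceeds 2.5, whereas those arrays are not the lowest stretched ones for MGST1 and CAT, and PRDX4 (2) lies below the static arrays at every difference.

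Spread among arrays was wider in stretched tissue. Over the 53 member probe sets with a mean of at least 5 in every group, the median SD was 0.52 log2 in stretched tissue with 5HT plus Fluox, 0.86 in stretched tissue without agents, 0.28 in static tissue with the agents and 0.42 in static tissue without agents. The same medians over all 9730 such probe sets were 0.48, 0.69, 0.28 and 0.37.

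Genes around these pathways gave a mixed account. Of 15 probe sets of 9 regulators of the NRF2 and aryl hydrocarbon receptor pathways, 7 were higher and 1 lower without agents, and 4 and 1 with them, against 29.4% and 23.1%, and 28.3% and 23.9%, of all probe sets. The aryl hydrocarbon receptor AHR averaged 5.69 ± 0.46 in stretched and 4.66 ± 0.22 in static tissue with the agents on its brightest probe set (SD, n = 6), a rise of 1.03 (SE 0.19, adjusted p = 2.6e-04, limma), which did not hold with the covariate (0.53, adjusted p = 0.176). NCOA7 rose by 1.34 (SE 0.24, adjusted p = 1.8e-04) without agents and 1.28 (SE 0.24, adjusted p = 2.2e-04) with them, and PGAM5, a mitochondrial phosphatase that binds KEAP1, fell by 1.17 (SE 0.29) and 1.24 (SE 0.29). The covariate ended both PGAM5 calls (adjusted p = 0.0691 and 0.155) and that of NCOA7 with agents (0.81, adjusted p = 0.107). Of 17 probe sets of 14 other NRF2-responsive genes, 2 were higher and 7 lower without agents (11.8% and 41.2%). With the agents 3 were higher and 7 lower (17.6% and 41.2%). In 13 of them without agents and 14 with them the brighter group averaged 5 or more. Of those, 15.4% were higher and 38.5% lower without agents, against 23.9% and 36.1% of all probe sets at that level. With the agents 21.4% were higher and 42.9% lower, against 27.2% and 39.1%. The covariate fit called 1 higher and 3 lower without agents, and 2 and 1 with them, where it called 21.6% and 15.5% of all probe sets. The pentose phosphate enzyme TALDO1 fell by 1.63 (SE 0.32, adjusted p = 4.8e-04) and 2.19 (SE 0.32, adjusted p = 1.8e-05). The carbonyl reductase CBR1 rose by 3.18 (SE 0.68, adjusted p = 1.0e-03) and 1.95 (SE 0.68, adjusted p = 0.0221), and EPHX1, a microsomal epoxide hydrolase, rose by 1.71 (SE 0.28, adjusted p = 5.8e-05) with the agents. Of these only the CBR1 call with agents ended with the covariate (adjusted p = 0.228).

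Of 24 probe sets for glutathione supply and other redox enzymes, 5 were higher and 4 lower without agents, and 7 and 4 with them. That is 20.8% and 16.7%, and 29.2% and 16.7%, against the 29.4% and 23.1%, and 28.3% and 23.9%, of all probe sets given above. SELENOP, the selenium transport protein of plasma, rose by 1.49 (SE 0.28, adjusted p = 3.8e-04, limma) and 1.98 (SE 0.28, adjusted p = 1.6e-05), and CTH, which makes cysteine from cystathionine, rose by 1.12 (SE 0.23, adjusted p = 6.3e-04) without agents. The methionine sulfoxide reductase MSRB1 fell by 2.06 (SE 0.48, adjusted p = 0.00199) and 1.99 (SE 0.48, adjusted p = 0.0022), and neither call held with the covariate (-1.16, adjusted p = 0.131, and -0.76, adjusted p = 0.499). Of 20 probe sets for sources of reactive oxygen species, 4 were higher and 6 lower without agents (20% and 30%), and 5 and 3 with them (25% and 15%). MAOA, which oxidises serotonin and releases hydrogen peroxide, averaged 10.30 ± 0.54 in stretched and 7.89 ± 0.79 in static tissue without agents (SD, n = 6) and 10.77 ± 0.28 against 7.90 ± 0.14 with 5HT plus Fluox. Those were rises of 2.41 (SE 0.28, adjusted p = 1.9e-06) and 2.87 (SE 0.28, adjusted p = 1.7e-07). NCF1, the phagocyte oxidase organiser, fell by 3.21 (SE 0.46, adjusted p = 1.8e-05) and 2.45 (SE 0.46, adjusted p = 2.5e-04) on its brighter probe set. Of 14 probe sets of macrophage and leukocyte markers, 4 fell in both comparisons (ITGB2, SPI1, AIF1 and TYROBP), ITGB2 by 3.15 (SE 0.34) and 2.46 (SE 0.34), and 2 were called higher in each, both ITGAM probe sets without agents and PTPRC and 1 of ITGAM with them, all at means under 5. The covariate ended the AIF1, PTPRC and ITGAM calls with agents, and that of 1 of the 2 ITGAM probe sets without them. The part of these cells was not tested. Of 17 probe sets of other drug-metabolising enzymes and transporters, 8 were higher and 3 lower without agents (47.1% and 17.6%), and 9 and 1 with them (52.9% and 5.88%), of which the covariate fit called 1 and 2, and 1 and 0. POR, the reductase that supplies electrons to microsomal P450 enzymes, fell by 1.84 (SE 0.44, adjusted p = 0.00244) and 1.47 (SE 0.44, adjusted p = 0.00972), at means under 5, and the fall with agents did not hold with the covariate (adjusted p = 0.247).

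The effect of 5HT plus Fluox on these genes was examined within static and within stretched tissue. In static tissue no member was called (limma, adjusted p under 0.05), against 0.00417% of all probe sets, and 4 of 135 members had an unadjusted p under 0.05, against 1.76% of all probe sets. CYP3A46 had the smallest p and read 5.20, 6.24 and 9.03 with the agents and 2.57, 4.09 and 6.68 without them, a difference of 2.38 (SE 0.70, adjusted p = 1, limma). CYP2D25 (2) differed by -0.63 (SE 0.20), SOD3 by -0.98 (SE 0.40) and CYP2B22 by -2.18 (SE 0.97).

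In stretched tissue no member was called either, against 0.0583% of all probe sets, and 20 of 135 had an unadjusted p under 0.05, against 14.8%. CYP2D25 (1) read 8.29, 8.95 and 9.22 with the agents and 7.47, 8.08 and 8.71 without them, a difference of 0.74 (SE 0.21, adjusted p = 0.124, limma). ALDH18A1, of proline synthesis, differed by 0.59 (SE 0.18, adjusted p = 0.132). GCLM (1) read 2.83, 4.50 and 4.95 with the agents, and without them the group parted into 4 arrays from 7.12 to 8.54 and 2 at 3.48 and 4.16 (arrays 5 and 6). The difference was -2.27 (SE 0.69, adjusted p = 0.133). GSTK1 differed by 1.21 (SE 0.40, adjusted p = 0.164) and PRDX1 by -1.04 (SE 0.36, adjusted p = 0.181).

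The negative result in stretched tissue depended on single arrays. In each fit below the share of members called was near that of all probe sets. Without stretched array 6 of the no-agents group, 9 of the 135 members were called, 2 higher and 7 lower with the agents, against 6.86% of all probe sets. The 7 were all among the 13 probe sets whose lowest stretched arrays were 5 and 6 in both groups. Those 13 were picked for low values on these arrays, so leaving out array 6 raised their mean without agents in any case. Stretched arrays 5 and 6 with the agents stayed in that fit. GCLM (1) then differed by -2.72 (adjusted p = 0.0221, limma), PRDX1 by -1.36 (adjusted p = 0.0172), NQO1 by -1.34 (adjusted p = 0.0484), SOD2 by -1.08 (adjusted p = 0.0378), TXN (1) by -0.88 (adjusted p = 0.0317), GSTK1 by 1.43 (adjusted p = 0.0381) and ALDH18A1 by 0.72 (adjusted p = 0.0188). Without stretched array 5 of the no-agents group, 5 members were called, against 3.43% of all probe sets, GCLM (1) among them at -2.86 (adjusted p = 0.0209). Without the 3 arrays above 2.5 in 3′ to 5′ difference, 2 members were called, GPX2 and ALDH18A1, against 1.34%. That fit left out stretched array 6 without agents and stretched arrays 5 and 6 with them, and called none of the 7.

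The interaction, which asks whether the stretch effect differed between tissue with and without the agents, was called for no member and for 0% of all probe sets (limma), and 6 members had an unadjusted p under 0.05, against 7.46% of all probe sets. GSTK1 had a difference of stretch effects of 1.51 (SE 0.57, adjusted p = 0.632), CYP2D25 (1) of 0.78 (SE 0.30, adjusted p = 0.641), CYP3A46 of -2.37 (SE 0.99, adjusted p = 0.641) and GCLM (1) of -2.02 (SE 0.97, adjusted p = 0.666). Members called in only one stretch comparison, such as TXNIP, GSTK1, GCLM and GPX3, were therefore not shown to respond differently with the agents.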

How the data were processed

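The deposited values are log2 probe set levels from single-channel Affymetrix porcine arrays, 1 per piece and labelled from 6 ug of total RNA per the labels. The authors made them with Partek and GCRMA, per the submitters' processing notes, with versions not given in the sources used here. GCRMA log2 values have a floor, so a fold change against a dim group can be too small. The authors' deposited table of an analysis of variance also holds p-values and signed fold changes. It was used only as a comparison: it called 47 members higher and 29 lower by stretch without agents, 46 and 33 with 5HT plus Fluox, and 0 in either comparison of the agents, and its fold changes were within 6.21e-05 log2 of the group means. Over all its probe sets it called 13926 by stretch without agents and 13626 with them. For the agents it called 1 in static and 7 in stretched tissue.

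After removal of 124 control probe sets, 23999 were tested. A linear model of 4 group means over 24 arrays was fitted with limma 3.58.1 (R 4.3.3), with eBayes and Benjamini-Hochberg adjustment over the 23999 in each of 5 comparisons. The script was tested on simulated data. Gene symbols came from the platform annotation, which can be old, and 8 further probe sets were left out because they carry several symbols, at least 1 of them in these families. CYP1B1 had no probe set with a single symbol.

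The members, roles and lists were chosen with earlier results of these data known. Text names 19 core genes in each stretch comparison, the 8 largest rises and 8 largest falls called at a mean of at least 5, the 4 of smallest p where none was called, and up to 3 genes per other list. Members named beyond this complete a role and were chosen after their values were seen. Alternatives were a replicate block, trend and robust variances, a filter on dim probe sets (mean under 4), quantile normalization, centring, a fit of only the groups compared, a covariate for the 3′ to 5′ difference, leaving out 3 arrays in which it exceeds 2.5, and leaving out each array. Sequences and genome positions were not used here.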

Additional observations from a re-analysis of the deposited data

Results flagged for a closer look

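In 15 of 200 groups of 6 arrays, for the named member probe sets, 1 array stood apart from the others by Dixon's ratio (its gap to the nearest array over the group's range). Chance alone gives about 1 in 20. Of these, 4 were in stretched tissue with 5HT plus Fluox, 3 in stretched tissue without agents, 5 in static tissue with the agents and 3 in static tissue without agents. In stretched tissue with the agents, array 5 was low on PRDX1 (10.34, next 11.53, ratio 0.655) and on PRDX6 (10.70, next 11.62, ratio 0.739), and it had the widest 3′ to 5′ difference of all arrays, 4.66. In the same group CYP2C33 was high on array 3 (4.15, ratio 0.646) and TXNRD1 (3) on array 1 (2.46, ratio 0.874), both at dim levels. In stretched tissue without agents, CYP39A1 was high on array 4 (6.54, next 4.85, ratio 0.668), CYP3A29 on array 6 (3.08, ratio 0.754), and GPX4 (2) was low on array 4 (4.06, next 5.29, ratio 0.670).

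In static tissue with the agents, array 2 was high on MGST1 (11.12, next 10.06, ratio 0.660), on GPX1 (12.10, next 11.16, ratio 0.714) and on GPX4 (2) (5.72, next 4.91, ratio 0.792). There GCLC (5) was low on array 2 (1.56, ratio 0.687) and GCLM (2) on array 3 (2.72, ratio 0.713), both by under 0.15 log2. In static tissue without agents, array 4 was high on GCLM (2) (4.24, next 3.02, ratio 0.842) and GSR (3) (3.80, next 2.66, ratio 0.833), and array 2 on TXNRD1 (3) (2.83, next 2.41, ratio 0.644). The MGST1 fall with agents was -2.77 at its smallest when single arrays were left out, and its call was kept.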

How the results depend on the processing

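Among the members named by rule (184 values over the comparisons, 54 of them called), 5827 values were computed under alternatives and 5709 kept their direction and side of the threshold, 75 lost a call, 39 gained one and 4 called values turned, all 4 with 5HT plus Fluox and a covariate for the 3′ to 5′ difference (GSR (3) -0.03, NQO1 0.03, TXNRD1 (1) 0.65 and TXNRD1 (2) 1.16). Another 159 values turned without being called. Members called by stretch without agents numbered 68, and 39 with dim probe sets left out (fewer were tested), 42 in the fit of only the groups compared and 25 with the covariate, and 50 to 78 when single arrays were left out. Calls kept whichever array was left out were 22 of 39 higher and 21 of 29 lower. Those called by stretch with agents numbered 71, and 19 with the covariate and 57 to 79 when single arrays were left out, and 21 of 38 higher and 27 of 33 lower were kept throughout. For the agents in stretched tissue 0 members became 2 without the 3 arrays of widest difference, and 0 to 9 when single arrays were left out (5 without stretched array 5 and 9 without stretched array 6 of the no-agents group). For the agents in static tissue and for the interaction 0 members were called under every alternative run. The replicate block gave 66 and 71 for the stretch comparisons and 0 elsewhere. Deviations of same-numbered arrays correlated above 0.1 in 17 of 36 pairs (-0.375 to 0.59), in 5 of 6 between the static groups (0.335 to 0.59, the other -0.108) and in all 6 pairs of replicate 1 (0.181 to 0.431). Of 24 arrays 8 were closest to their own number. Since not every pair exceeded 0.1 between any groups compared, the arrays were not treated as paired, though partial sharing was seen. Only the groups compared was not run for the interaction, which needs all 4. The cause of the changes was not tested. Arrays give no counts, and dim members near the floor have limited precision: of the 39 higher calls without agents 29 were below a mean of 5.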
